A study of Mus musculus with 2 samples.

Results

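The fatty acid binding protein genes Fabp1 to Fabp7 and Fabp9 were taken from the gene table by symbol, 8 genes of 23997 rows. All 8 had a row. All 8 also reached the minimum used here for a call, a mean of 0.5 FPKM, a unit that scales fragments by transcript length and library depth. The study profiled polyadenylated RNA of medullary thymic epithelial cells, or mTECs, that were sorted for high MHC class II from pooled C57BL/6 mice. There was 1 library labelled WT and 1 library labelled Aire-KO, whose genotype is given as Aire-/-. Which Aire allele was used, and how many mice of what age and sex were pooled, is not stated in the labels. Each genotype has a single library, so there is no replicate check, and no difference below can be told apart from a difference between 2 libraries or 2 pools.

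Fatty acid binding proteins are small cytosolic proteins that fold into a barrel around a fatty acid, bile acid or similar ligand. They carry it to membranes, to enzymes or to nuclear receptors such as the PPARs. Each is best known from particular tissues: Fabp1 from liver and gut, Fabp2 from small intestine, Fabp6 from ileum, Fabp3 from heart and muscle, Fabp4 from fat and macrophages, Fabp5 from epidermis, Fabp7 from the developing brain and Fabp9 from testis. mTECs transcribe many genes of other tissues and present the products to developing T cells. Aire is the nuclear factor that drives a large part of that transcription.

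In paired values the WT level comes first, and lower or higher always describes the Aire-KO side. The log2 ratio of the FPKM values, with nothing added, carries a 95% interval computed from estimated fragments, which covers counting error only. A gene was called at a 2-fold difference after 0.1 FPKM was added to both values; this sorts genes by size and tests nothing. Of the 15906 genes that reached the minimum, 20.5% were lower and 7.09% higher, with a median log2 ratio of 0.05. With 1 FPKM added instead, 15.2% were lower and 4.41% higher. The counts in the lists below are to be read beside these shares. A gene almost absent from a library reaches the minimum only through the other library, so its call is fixed by that filter. The lists and the shares of all genes both hold such genes. Aire itself stood at 220.6 and 640.2 FPKM. An FPKM value covers the whole transcript and the allele is not given, so the Aire level does not check the label. Defining mTEC genes were present in both libraries, and none of 13 passed the 2-fold rule (1 was lower after rescaling by the median ratio of genes). Highest were 2 that encode MHC class II chains, with H2-Aa at 8398 and 11948 FPKM and H2-Ab1 at 7283 and 10067 FPKM, and the ratios ran from Cldn4 (581.8 and 308.6 FPKM) to Tnfrsf11a (25.3 and 47.0 FPKM).

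The upstream sequences of 5 of the 8 genes are in the RefSeq promoter table of build GRCm38.p6, the same build as mm10. They are shown because Fabp1, Fabp2, Fabp3 and Fabp6 were lower in the Aire-KO-labelled library and Fabp7 was not. Each is the 250 bases before the annotated start, 5′ to 3′ on the strand of the gene. Capitals mark matches on either strand to the TATA box hexamer TATAAA, to the CCAAT box, or to the hexamer AGGTCA that many nuclear receptors bind. A repeat of the last hexamer with 1 base between, the form bound by PPAR with RXR, was also searched and would overlap single matches.
Fabp1 promoter, chr6:71199629-71199878, plus strand: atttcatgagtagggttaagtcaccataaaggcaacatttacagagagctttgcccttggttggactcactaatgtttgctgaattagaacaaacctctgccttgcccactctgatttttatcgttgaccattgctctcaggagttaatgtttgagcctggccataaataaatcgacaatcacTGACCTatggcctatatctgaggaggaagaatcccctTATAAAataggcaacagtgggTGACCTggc
Fabp2 promoter, chr3:122894822-122895071, plus strand: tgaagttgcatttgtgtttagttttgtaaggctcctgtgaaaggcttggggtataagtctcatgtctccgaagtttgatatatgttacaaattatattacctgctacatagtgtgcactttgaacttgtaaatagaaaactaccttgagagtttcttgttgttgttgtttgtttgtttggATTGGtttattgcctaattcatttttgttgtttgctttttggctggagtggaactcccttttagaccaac
Fabp6 promoter, chr11:43601563-43601812, minus strand: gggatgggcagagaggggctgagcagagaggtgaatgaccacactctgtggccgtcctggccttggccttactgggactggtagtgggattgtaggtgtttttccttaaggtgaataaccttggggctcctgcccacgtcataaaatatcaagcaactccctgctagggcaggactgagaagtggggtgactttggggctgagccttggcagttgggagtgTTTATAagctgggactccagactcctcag
Fabp3 promoter, chr4:130308488-130308737, plus strand: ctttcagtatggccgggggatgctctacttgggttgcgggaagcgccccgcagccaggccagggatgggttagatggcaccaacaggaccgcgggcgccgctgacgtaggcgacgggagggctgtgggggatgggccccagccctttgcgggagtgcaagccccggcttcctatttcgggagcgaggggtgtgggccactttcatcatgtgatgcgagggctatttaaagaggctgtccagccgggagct
Fabp7 promoter, chr10:57784673-57784922, plus strand: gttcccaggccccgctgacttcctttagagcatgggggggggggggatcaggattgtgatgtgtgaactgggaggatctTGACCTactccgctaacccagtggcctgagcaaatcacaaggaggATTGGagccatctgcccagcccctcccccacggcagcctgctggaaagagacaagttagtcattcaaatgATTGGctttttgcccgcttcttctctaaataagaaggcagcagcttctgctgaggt
No motif was shared by all 4 lower genes. Fabp1 held TATAAA 30 bases before its start, and Fabp6 held its reverse complement at base 29. Of 32851 promoter sequences of the same length in that table, 12.4% held TATAAA on either strand. AGGTCA was matched at 2 places before Fabp1 and 1 before Fabp7, against 14.0% of all promoters. CCAAT was matched once before Fabp2 and at 2 places before Fabp7, against 33.8% of all. No exact copy of the repeat was in these windows, and an exact copy occurs in 0.0335% of all. Copies with mismatched bases were not searched, so a looser site of this form may be present. In base composition Fabp3 stood apart, with 17 CpG pairs and 64.8% G and C, where the median promoter had 6 and 52.4%. Fabp1, Fabp2, Fabp6 and Fabp7 held 2, 1, 2 and 4 CpG pairs. The lower genes thus included both the highest and the lowest CpG counts of the 5.

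The family split into a lower group and a group that passed no call, with no gene near the 2-fold line. Of the 8 genes, 5 were lower (Fabp1, Fabp2, Fabp3, Fabp6 and Fabp9), none was higher and 3 were neither (Fabp4, Fabp5 and Fabp7). The same 5 genes were lower at a 4-fold rule and none was higher, where 11.9% of all genes were lower and 0.629% higher. At a mean of 10 FPKM or more, which leaves out Fabp3, 4 of 7 members were lower and none higher, against 9.69% and 6.73% of all genes at that level. Fabp2 reached that mean only through the WT-labelled library (26.1 and 1.23 FPKM), so its lower call there was fixed by the filter. Fabp3 (2.81 FPKM and listed at 0) reached the minimum of 0.5 FPKM in the same way. The median log2 ratio of the 8 was -2.45, with 0.1 FPKM added. Nearest to the 2-fold line on the lower side was Fabp9, 4.12-fold lower, and on the other side Fabp7, 1.41-fold higher. Level did not sort the groups: Fabp7 was the weakest but one of the 8 in the WT-labelled library, and Fabp9 was the third most abundant. Summed over the 8 genes, the level was 3886 and 3176 FPKM. Without Fabp4 and Fabp5 the sum was 654.9 and 132.5 FPKM, so those 2 genes made up 83.1% and 95.8% of the family total.

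**Figure D1:**
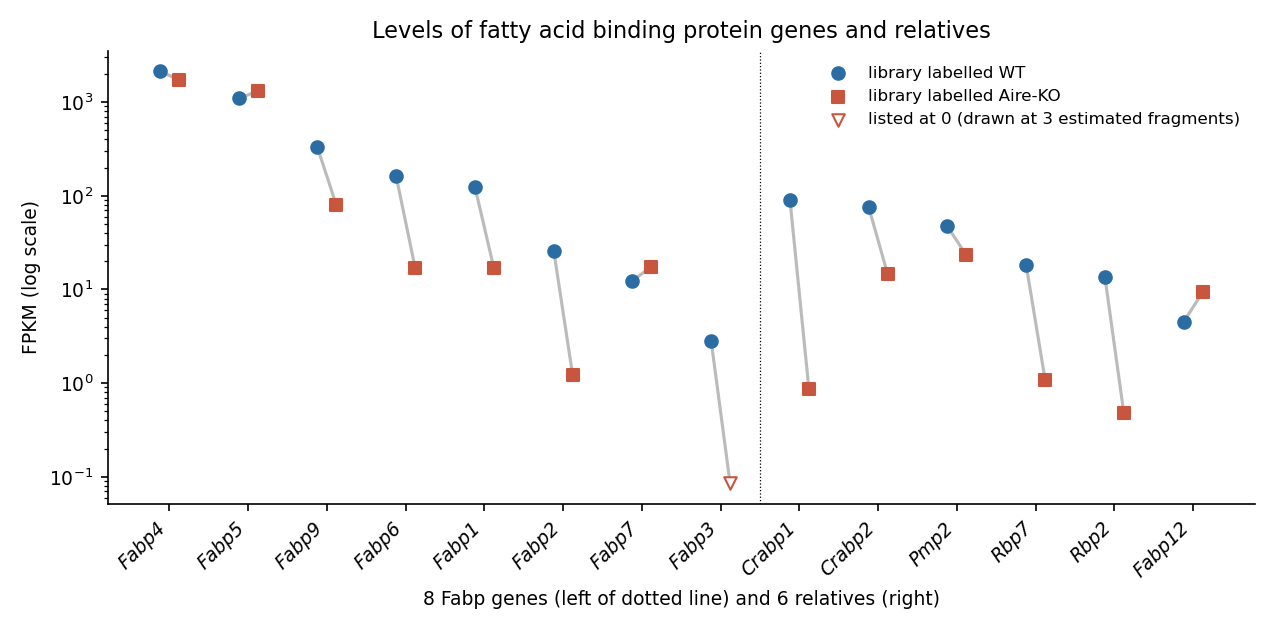
FPKM on a log scale for the 8 Fabp genes and 6 relatives, 1 point per library, circles for the WT-labelled library and squares for the Aire-KO-labelled library. Fabp4 and Fabp5 sit at 1099.5 FPKM or more in both libraries, while 5 Fabp genes are lower; Fabp3, listed at 0, is drawn as an open triangle at the level of 3 estimated fragments (0.0849 FPKM).

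The intestinal members were all lower. Fabp6, the ileal bile acid binding protein gene (RefSeq position chromosome 11, 43596040 to 43601562, mm10, minus strand), stood at 161.1 FPKM in the WT-labelled library and 17.1 FPKM in the Aire-KO-labelled library. That is 9.39-fold lower, a log2 ratio of -3.23 (-3.41 to -3.05), on an estimated 2186 and 287 fragments. Its transcript of 479 bp is shorter than the 500 bp from which the fragment estimate was fitted, so these fragment numbers are the least sure of the family.

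Fabp1, the liver form that is also abundant in the proximal gut (chromosome 6, 71199879 to 71205034, plus strand), stood at 124.3 and 17.0 FPKM. It was 7.33-fold lower, with a log2 ratio of -2.87 (-3.04 to -2.71). Fabp2, the enterocyte form (chromosome 3, 122895072 to 122899506, plus strand), stood at 26.1 and 1.23 FPKM and was 21.2-fold lower (-4.41, -4.83 to -4.00). The interval of Fabp2 lay wholly below those of Fabp1 and Fabp6. In the WT-labelled library the order by FPKM was Fabp6, Fabp1, Fabp2, and Fabp2 lay below the others beyond counting error. Fabp6 and Fabp1 had nearly equal estimated fragments there (2186 and 2127). Their order thus rests on the correction for short transcripts (479 and 553 bp), whose error was not measured. In the Aire-KO-labelled library, Fabp6 (15.2 to 19.3 FPKM by counting) and Fabp1 (15.2 to 18.8 FPKM) could not be ordered, and Fabp2 was 13.8-fold below Fabp1.

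Fabp3, the heart and muscle form (chromosome 4, 130308738 to 130315463, plus strand), was the weakest member. It stood at 2.81 FPKM in the WT-labelled library, on an estimated 84 fragments, and was listed at 0 in the Aire-KO-labelled library. A count of 0 fragments there allows up to 0.0849 FPKM (3 fragments), against which Fabp3 was at least 33.0-fold lower with the WT value taken as measured. With counting error in both libraries the log2 ratio was -4.71 or below, a weaker bound. Of the 724 stretches of 100 bp (the read length) in its transcript, 157 (21.7%) also occur in the processed pseudogene Fabp3-ps1, which has no row in the gene table. The labels do not say how reads from those stretches were assigned.

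Fabp9, a protein of the sperm acrosome (chromosome 3, 10193623 to 10197283, minus strand), was the most abundant of the lower members. It stood at 328.3 and 79.6 FPKM, 4.12-fold lower, with a log2 ratio of -2.04 (-2.12 to -1.97) on an estimated 6089 and 1779 fragments. Even so it ranked 207th and 1175th among all genes by FPKM and remained well above the other 4 lower members in the Aire-KO-labelled library.

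Fabp4 and Fabp5 were among the most abundant transcripts of these cells and passed no call. Fabp4, the adipocyte and macrophage form (chromosome 3, 10204342 to 10208616, minus strand), stood at 2132 and 1737 FPKM and ranked 16th and 26th among all genes. Its log2 ratio was -0.30 (-0.31 to -0.28). Fabp5, the epidermal form, which also delivers retinoic acid to PPAR delta (chromosome 3, 10012585 to 10016610, plus strand), stood at 1099.5 and 1307 FPKM and ranked 37th and 41st. Its log2 ratio was 0.25 (0.23 to 0.27). As deposited, the 2 genes thus differed in opposite directions. The median log2 ratio of the 13 mTEC genes was 0.32, so Fabp5 was not higher relative to that median. Fabp4 exceeded Fabp5 by 1.94-fold in the WT-labelled library and 1.33-fold in the Aire-KO-labelled library. Scaling affects the log2 ratios of Fabp4 and Fabp5 by the same amount, so the narrower gap between the 2 genes does not depend on it.

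Fabp5 was the only member with more than 1 transcript row. NM_010634 made up 99.4% and 98.9% of the gene, at 1093 and 1293 FPKM. NM_001272097 stood at 2.73 and 7.66 FPKM and NM_001272098 at 3.55 and 6.26 FPKM. These minor forms overlap the main one, and the error of splitting reads among them was not measured. Of the 888 stretches of 100 bp in the main transcript, 80 (9.01%) also occur in processed pseudogenes elsewhere, neither of which has a row in the table.

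Fabp7, the brain form expressed by radial glia (chromosome 10, 57784923 to 57788450, plus strand), stood at 12.4 and 17.5 FPKM. It was 1.41-fold higher, a log2 ratio of 0.50 (0.31 to 0.69) on an estimated 361 and 601 fragments, which is under the 2-fold rule. In the WT-labelled library Fabp7 lay below Fabp2. In the Aire-KO-labelled library it stood level with Fabp1 and Fabp6 within counting error (16.1 to 19.0 FPKM).

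**Figure D2:**
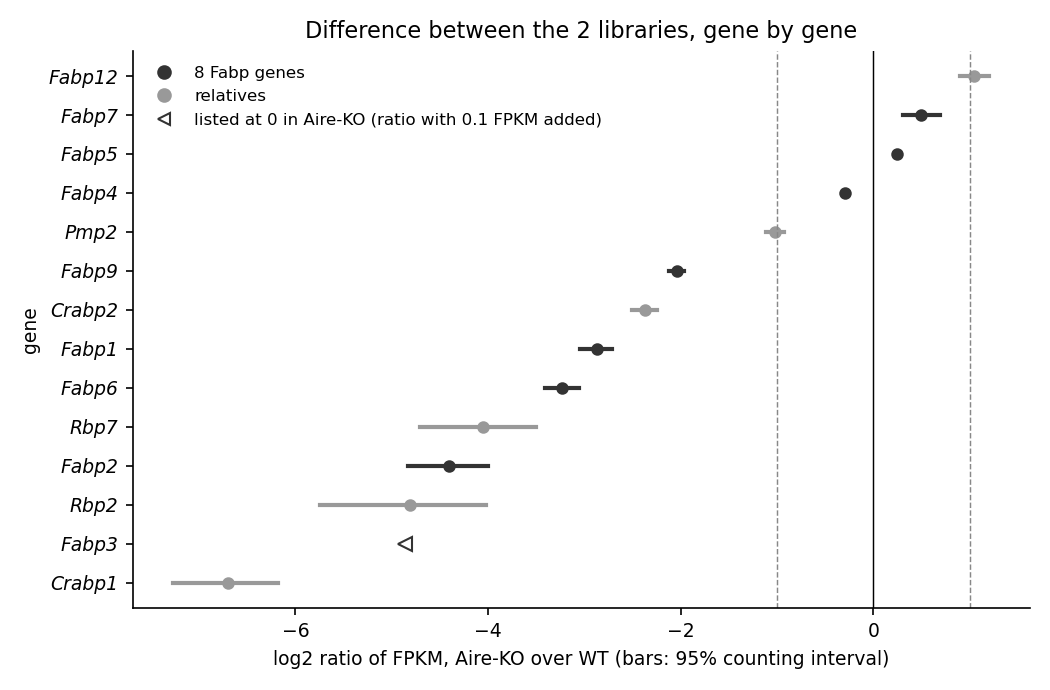
Log2 ratio of FPKM, Aire-KO over WT, for the 8 Fabp genes (dark) and 6 relatives (grey), sorted. Bars are 95% counting intervals, dashed lines mark the 2-fold rule, and the triangle is Fabp3 (-4.86 with 0.1 FPKM added), listed at 0; none of the 8 Fabp genes lies between -2.04 and -0.30.

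In the authors' deposited table no member passed a q-value of 0.05, against 70 genes in all. The smallest p-values among members in the authors' deposited table were 0.0034 for Fabp3 (q of 0.135) and 0.00625 for Fabp9 (q of 0.215). For Fabp4 and Fabp5 the authors' deposited table gave p of 0.727 and 0.770. These values compare 2 libraries, not 2 genotypes.

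Fabp4, Fabp5 and Fabp9 lie together on chromosome 3 with 2 relatives, Pmp2, a myelin protein of peripheral nerve also called Fabp8, and Fabp12. The 5 genes span 288931 bp. Pmp2, Fabp9, Fabp4 and Fabp12 share the minus strand, and Fabp5 lies 163240 bp from Pmp2 on the plus strand. The sizes of the ratios differed between adjacent genes: the 3 middle genes, Pmp2, Fabp9 and Fabp4, had log2 ratios below 0, and the outer 2, Fabp5 and Fabp12, above 0. Fabp9 and Fabp4 are separated by 7058 bp, yet their log2 ratios were -2.04 and -0.30 with intervals that do not overlap. Pmp2, 9737 bp on the other side of Fabp9, stood at 47.1 and 23.2 FPKM (log2 ratio -1.02, -1.11 to -0.93), at the edge of the 2-fold rule. Fabp12 stood at 4.53 and 9.33 FPKM (1.04, 0.89 to 1.20) and was just called higher; its interval rests on an annotated transcript length of 2512 bp that was not checked. The call of Fabp12 was lost with either rescaling of the libraries (0.95 and 0.86), and those of both Fabp12 and Pmp2 with 1 FPKM added (0.90 and -0.99).

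**Figure D3:**
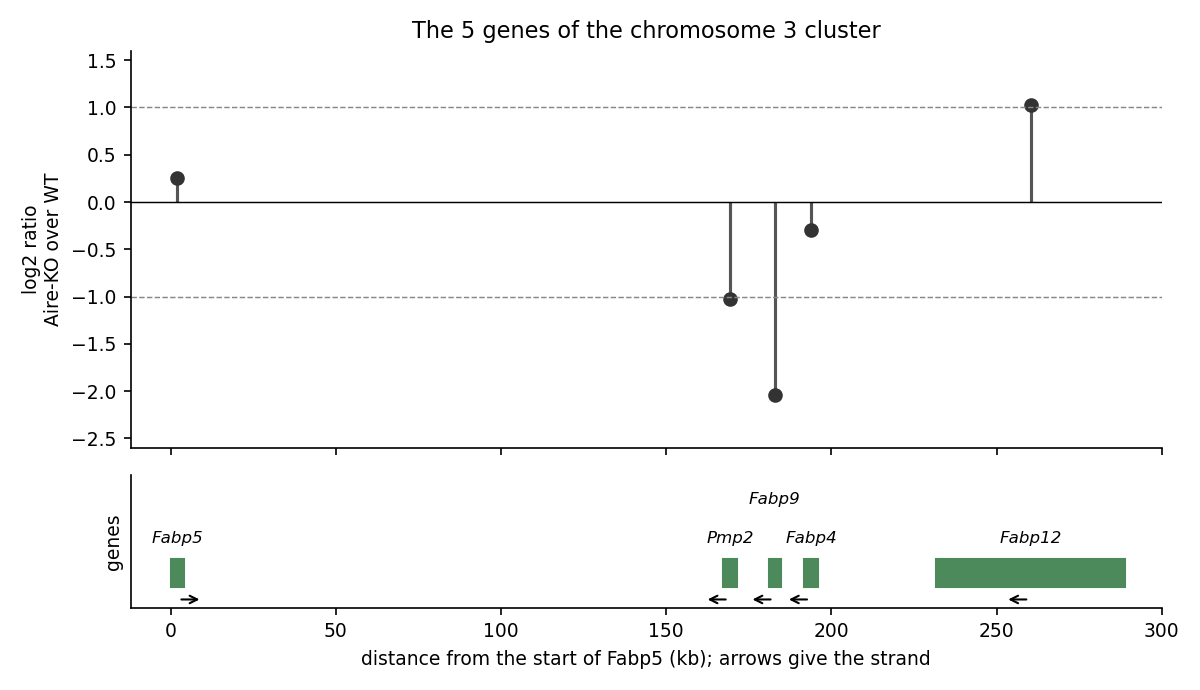
Log2 ratio (0.1 FPKM added) of the 5 genes of the chromosome 3 cluster against distance in kb from the start of Fabp5, with the gene bodies to scale and arrows for the strand. Fabp9 (-2.04) and Fabp4 (-0.30) are next to each other, and Fabp12 and Pmp2 lie at the dashed 2-fold lines on opposite sides.

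Over all genes at the minimum, 72.4% were neither lower nor higher. Within 500 kb of Fabp4, there were 7 further measured genes, and 4 of them passed no call, 1 was lower and 2 were higher. The lower one was the transporter gene Slc10a5 (4.31 and 0.752 FPKM). Snx16, a sorting nexin gene, was higher (11.8 and 28.8 FPKM), as was Gm9833 (4.18 and 8.70 FPKM). Within 500 kb of any of the 8 members, there were 53 measured genes outside the family, and 43 of them passed no call, 7 were lower and 3 were higher, which is no result beside that share. Next to Fabp1, Smyd1, a heart and muscle methyltransferase gene 8906 bp away, stood at 4.34 and 0.0936 FPKM, while Krcc1, 66985 bp away, stood at 31.3 and 41.6 FPKM. Zcchc17, 622 bp from Fabp3, stood at 21.8 and 21.3 FPKM, and Smpdl3a, 6094 bp from Fabp7, at 189.9 and 263.5 FPKM.

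The coding sequences of the cluster show how far its members can be told apart by reads. The first 60 coding bases of 4 neighbours are given from GENCODE release M21 (GRCm38), with capitals for the 29 positions at which all 4 carry the same base.
Fabp4: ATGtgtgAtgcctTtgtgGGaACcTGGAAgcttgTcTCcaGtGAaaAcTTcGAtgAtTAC
Pmp2: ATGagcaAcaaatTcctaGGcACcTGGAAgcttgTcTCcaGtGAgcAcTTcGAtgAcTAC
Fabp9: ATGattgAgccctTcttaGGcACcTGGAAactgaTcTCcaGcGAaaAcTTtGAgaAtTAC
Fabp12: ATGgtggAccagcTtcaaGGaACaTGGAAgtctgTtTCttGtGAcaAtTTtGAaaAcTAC
Over whole coding sequences, of 384 to 408 bp in the 8 members, the 28 pairs of members had 47.6% to 66.7% identical bases (median 52.5%). The closest pair of members was Fabp3 and Fabp7, and the closest pair within the cluster was Fabp4 and Pmp2 at 71.4%. The longest exact stretch shared by the transcripts of any 2 members was 20 bp, and that of Fabp4 and Pmp2 was 23 bp, both well under the 100 bp read. All 8 transcripts have 4 exons. One annotated gene, Gm37389, overlaps the place of Fabp9 and holds 205 of its 484 stretches of 100 bp (42.4%); it has no row in the gene table.

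The wider family of intracellular lipid-binding proteins, which adds the retinoid carriers, was lower more often than not. Of 6 relatives, 5 were lower and 1 (Fabp12) higher, with a median log2 ratio of -3.15. Of the 14 genes compared here, Fabp3, listed at 0, has only a bound and cannot be ranked. Among the rest, Crabp1, which binds retinoic acid in the cytosol, showed the lowest ratio: 91.0 and 0.876 FPKM (-6.70, -7.27 to -6.18). Its paralog Crabp2, which delivers retinoic acid to its nuclear receptor, stood at 75.7 and 14.6 FPKM (-2.37). The intestinal retinol carrier Rbp2 stood at 13.4 and 0.478 FPKM on 13 estimated fragments in the latter, and Rbp7 at 18.1 and 1.09 FPKM.

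Genes that act beside the intestinal carriers were mostly lower. In a list of 18 genes of triglyceride and lipoprotein assembly, 16 were measured, 11 were lower and none was higher (median log2 ratio -1.51). The apolipoprotein gene Apoa4 stood at 520.1 and 46.5 FPKM and Mogat2, which joins fatty acids to monoglycerides in enterocytes, at 4.97 and 0.299 FPKM. Sar1b, needed for export of lipoprotein particles from the endoplasmic reticulum, stood at 124.7 and 149.5 FPKM. Of 8 genes of ileal bile acid handling, the setting in which Fabp6 works, 6 were measured and all 6 were lower (median -3.60, or -3.27 with the 2 genes listed at 0 placed at 3 fragments). That median depends on the pseudocount, at -1.98 with 1 FPKM added and -4.94 with 0.01 FPKM. Fgf15 and the 2 genes listed at 0 reached the minimum only through the WT-labelled library, so their lower calls were fixed by the filter. The bile acid exporter subunit Slc51b stood at 24.6 and 4.12 FPKM, its partner Slc51a at 14.0 and 1.97 FPKM and the hormone gene Fgf15 at 5.85 and 0.0338 FPKM. The transporter Abcc3, at 16.9 and 7.86 FPKM, had the ratio nearest to 0 among the 6. Slc10a2, the ileal bile acid uptake carrier, was at 0.117 FPKM and listed at 0, below the minimum in this comparison.

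Genes of enterocytes and hepatocytes, the cells best known for Fabp1 and Fabp2, were largely lower. Of 13 measured enterocyte genes 10 were lower (median -2.05), with the brush border gene Alpi at 4.99 and 0.136 FPKM and Cdhr5 at 73.7 and 25.4 FPKM. The gut transcription factor Cdx1 stood at 140.3 and 253.2 FPKM, whereas Cdx2 stood at 2.40 and 0.0467 FPKM. Of 11 measured hepatocyte genes 9 were lower (median -3.08, or -1.62 with 1 FPKM added). The iron carrier Trf stood at 139.4 and 71.2 FPKM, while the fibrinogen gene Fgb was at 8.18 FPKM and listed at 0.

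Fatty acid uptake and oxidation lists each held lower calls and 1 higher call, and the PPAR and RXR list held 1 lower call. Of 12 measured genes of uptake and activation 5 were lower and 1 higher (median -0.72), and the higher call was lost with 1 FPKM added and with either rescaling. The scavenger receptor Cd36, which takes up long-chain fatty acids, stood at 4.09 and 0.455 FPKM. Dbi, which binds acyl-CoA in the cytosol, stood at 482.6 and 215.6 FPKM, the acyl-CoA synthetase Acsl5 at 71.6 and 80.9 FPKM, and the transporter Slc27a3 at 6.08 and 12.4 FPKM. Of 9 measured PPAR and RXR receptors and coregulators 1 was lower, Pparg (6.01 and 2.34 FPKM), and 8 were neither (median -0.44). After rescaling by the median ratio 2 were lower. Over all genes 20.5% were lower, or 22.7% after that rescaling, so these counts give no result beside those shares. Ppard stood at 13.7 and 10.1 FPKM and Rxrb at 23.6 and 29.5 FPKM, and the corepressor Ncor1 at 14.2 and 18.9 FPKM. Of 14 measured genes of fatty acid oxidation and PPAR targets 2 were lower, 1 higher and 11 neither (median -0.31). With either rescaling 4 were lower, and the median was -0.47 with the median ratio. Over all genes 20.5% were lower and 7.09% higher, and these counts give no result beside those shares. Pdk4 stood at 30.1 and 3.13 FPKM and the hormone gene Fgf21 at 254.4 and 796.2 FPKM. Hadha, an enzyme gene of mitochondrial oxidation, was neither (49.9 and 61.6 FPKM).

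**Figure D4:**
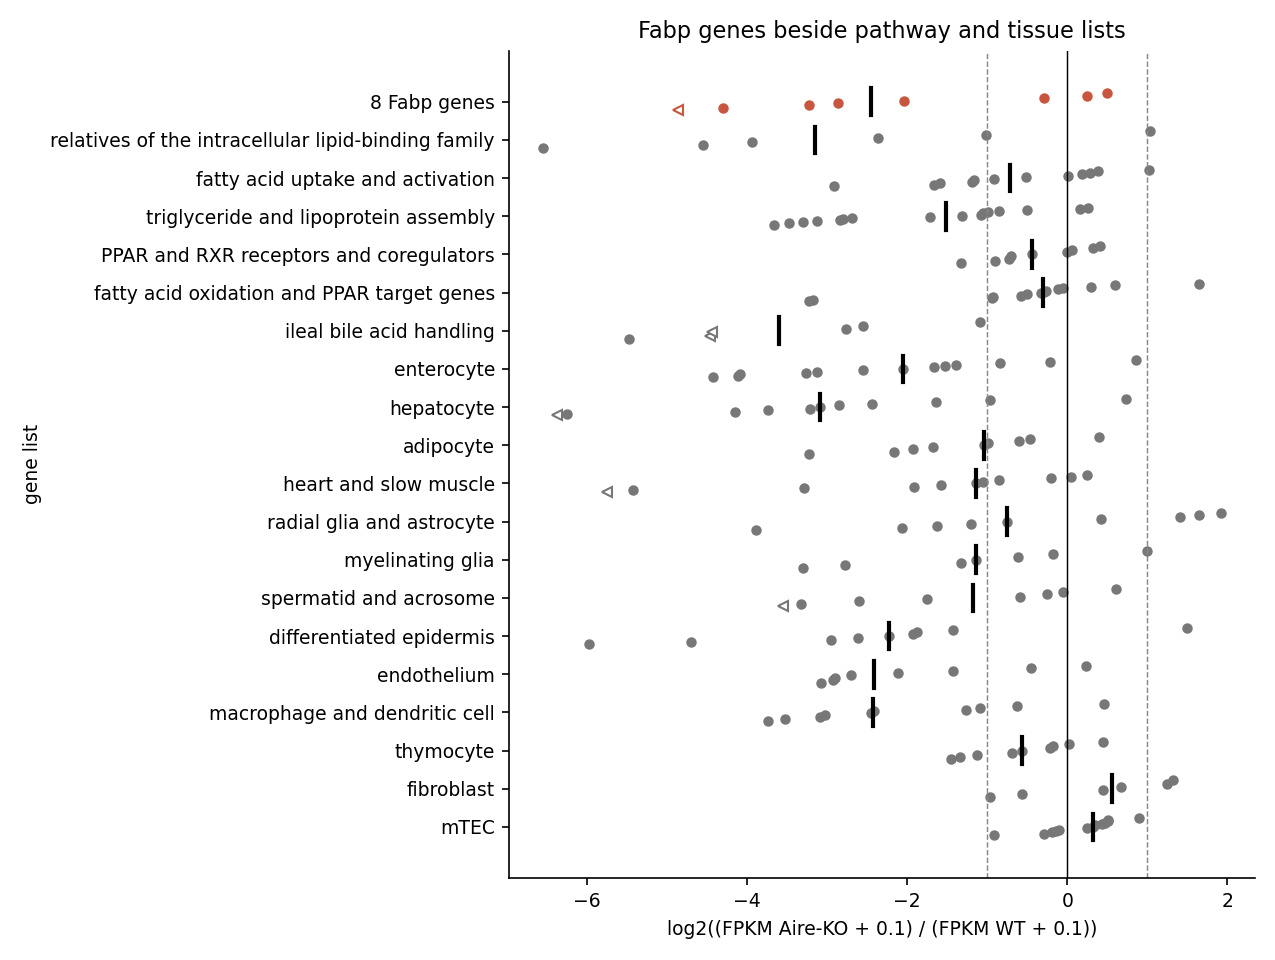
Log2 ratio (0.1 FPKM added) of each measured gene in 20 lists, with black bars for list medians, dashed lines at the 2-fold rule and open triangles for genes listed at 0 in the Aire-KO-labelled library. The Fabp genes (top, coloured) fall into 5 at -2.04 or below and 3 between -0.30 and 0.49, and, as deposited, the mTEC list stays within the lines.

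In lists for the tissues of the other members, lower calls outnumbered higher ones, except for radial glia and astrocytes with 1 FPKM added. For fat, the tissue of Fabp4, 5 of 9 measured genes were lower and none higher (median -1.04), and 3 were lower with 1 FPKM added. The fat hormone gene Adipoq stood at 7.50 and 1.89 FPKM, Gpd1 at 5.59 and 0.508 FPKM, the lipase genes Lpl at 10.7 and 7.01 FPKM and Pnpla2 at 71.7 and 94.8 FPKM, the glucose transporter Slc2a4 at 13.7 and 9.89 FPKM, and Lep at 0.0550 FPKM and listed at 0. For differentiated epidermis, the tissue of Fabp5, 8 of 9 measured genes were lower and 1 higher (median -2.23). Krtdap stood at 1087 and 140.2 FPKM, Sbsn at 313.1 and 82.4 FPKM, Krt1 at 99.9 and 1.49 FPKM, and the exception Dsg1a at 24.0 and 67.8 FPKM. Fabp4 and Fabp5 passed no call, as was so for 4 of the 9 measured fat genes and none of the measured epidermis genes.

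For radial glia and astrocytes, the cells of Fabp7, 4 of 9 measured genes were lower and 3 higher (median -0.75). With 1 FPKM added 2 were lower and 3 higher. Higher genes were the intermediate filament gene Vim (150.1 and 397.9 FPKM), the glutamate transporter gene Slc1a3 (26.7 and 101.0 FPKM) and Ptprz1 (2.20 and 7.11 FPKM), whereas Gfap stood at 2.55 and 0.0797 FPKM. For heart and slow muscle, the tissue of Fabp3, 7 of 11 were lower and none higher (median -1.14). Myl2 was at 5.27 FPKM and listed at 0, and Tnnt2 stood at 41.4 and 22.9 FPKM. Tnnc1 stood at 18.9 and 8.52 FPKM and Tnni3 at 6.91 and 8.24 FPKM. For spermatids, the cells of Fabp9, 4 of 8 were lower and none higher (median -1.17, or -0.72 with 1 FPKM added). Tnp2 stood at 21.2 and 17.7 FPKM and Prm1 at 6.38 and 0.962 FPKM. Zpbp stood at 0.520 and 0.843 FPKM, and Spaca7 at 1.07 FPKM and listed at 0. For myelinating glia, the cells of Pmp2, 4 of 7 were lower (median -1.14), or 2 with 1 FPKM added, and none was higher. Cnp stood at 135.7 and 269.6 FPKM, Mbp at 35.2 and 31.2 FPKM and Sox10 at 1.96 and 0.109 FPKM.

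Markers of macrophages, dendritic cells and endothelium, cells that can express Fabp4 or Fabp5 and could be present in the sort, were also mostly lower. In a bulk library, fewer cells of a type and less RNA per cell cannot be told apart. Of 10 measured macrophage and dendritic cell genes 8 were lower and none higher (median -2.43, or -1.58 with 1 FPKM added), and the list summed to 810.1 and 491.5 FPKM. Most of that sum was Lyz2 (675.5 and 436.4 FPKM). Itgam stood at 9.40 and 0.614 FPKM, Cd68 at 24.1 and 33.1 FPKM, and Fcgr1 at 0.0966 FPKM and listed at 0. Of 8 measured endothelial genes 6 were lower (median -2.41, or -1.33 with 1 FPKM added), and that list summed to 34.6 and 14.5 FPKM, with Tek at 5.92 and 4.30 FPKM, Pecam1 at 7.28 and 2.65 FPKM, Cdh5 at 2.62 and 0.222 FPKM, Vwf at 4.54 and 5.34 FPKM and no gene listed at 0. The fat list summed to 137.5 and 124.3 FPKM. The list sums depend on which markers were listed and do not measure the share of such cells. The part of these cells in the levels of Fabp4 and Fabp5 was not tested. Of 9 measured thymocyte genes 3 were lower (median -0.57), or 1 with 1 FPKM added (median -0.27). Over all genes 20.5% were lower, or 15.2% with 1 FPKM added, and so few genes give no result beside those shares. Lck stood at 9.83 and 4.46 FPKM, Cd4 at 7.57 and 6.68 FPKM, Cd3g at 7.63 and 2.73 FPKM and Rag1 at 0.546 and 0.783 FPKM. Of 6 fibroblast genes 2 were higher (median 0.55), with Dcn at 34.5 and 85.9 FPKM, Col3a1 at 7.21 and 9.86 FPKM and Col1a1 at 8.89 and 4.49 FPKM.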

How the data were processed

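RNA was measured in 1 library labelled WT and 1 labelled Aire-KO, made with a stranded mRNA kit and read as 100 bp pairs, per the labels. The authors deposited FPKM values per gene (23997 rows) and per RefSeq transcript (33295 rows), made with TopHat2 and Cuffdiff on build mm10, per the submitters' processing notes. The sources used here give no versions, annotation release or scaling method. The authors' p-values and q-values in the deposited tables compare 2 libraries and are quoted only as theirs. In 5 rows the tool gave no estimate, per the status column, and these were treated as missing. Position starts in the files count from 0 and were moved by 1; member positions printed are those of RefSeq, since the deposited loci can span neighbouring genes.

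Ratios are log2((Aire-KO + 0.1)/(WT + 0.1)). Adding 0.1 shrinks the ratios of weakly expressed genes. A call needed a 2-fold ratio and a mean of 0.5 FPKM. Depth was estimated because the deposited FPKM of genes with 1 transcript of 500 bp or more fell on whole multiples of a step. The step and a length offset were fitted to values of up to 5 fragments. They came to 47.8 fragments per FPKM and kb with an offset of 195 bp in the library labelled WT, and 54.1 with 170 bp in the library labelled Aire-KO. With the fit made on alternate genes, 80.5% and 79.6% of 400 and 563 low values of the remaining genes lay within 0.1 of a whole number, where 20% of evenly spread values would. The step implies about 47800000 and 54100000 fragments. Transcript lengths came from GENCODE M21 through its RefSeq links. Intervals of ratios are exact conditional binomial and those of levels exact Poisson, both at 95%, from these estimates. Only counting error is covered, and PCR copies cannot be recognised without molecular identifiers. The step fit, intervals and calls were tested on simulated data.

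Members, lists and rules were chosen with earlier results of these data known. Named are all 8 members and 6 relatives, and in each other list the 2 most expressed genes, the lowest and highest ratio, and Pparg, Ppard, Cd36, Slc10a2, Fgf15, Adipoq and Lpl. A few genes that this rule names are not reported here. Neighbours within 500 kb were counted. Slc51a, Cdx2, Hadha, Ptprz1, Lep, Fcgr1 and the named neighbours of Fabp1, Fabp3 and Fabp7 were added after their values were seen. In the macrophage list Adgre1 was matched as Emr1, an older symbol, and Flg is not analysed here. Upstream motifs were searched on both strands, and coding sequences were aligned globally with Biopython 1.88. Python 3.11.15, SciPy 1.17.1 and matplotlib 3.10.9 were used. Alternatives were other pseudocounts, minimums, folds, 2 rescalings and the transcript table.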

Additional observations from a re-analysis of the deposited data

How the results depend on the processing

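The same calls were made for the 8 Fabp genes under both other pseudocounts, both rescalings, the transcript table, no minimum, and 1.5-fold and 4-fold rules: 5 were lower and none was higher. Where a mean of 2 FPKM was required, Fabp3 drops below the minimum, 4 were lower, and the median log2 ratio moved from -2.45 to -2.04. With 1 FPKM added the ratio of Fabp2 was -3.60 (-4.30 with 0.1 FPKM added), that of Fabp3 -1.93 and the median -1.98. With 0.01 FPKM added the ratio of Fabp3, listed at 0, was -8.14, so its value rests on the pseudocount. Rescaling by the median ratio of genes at 5 FPKM or more shifts log2 ratios by -0.17 before the pseudocount and moves the median of all genes to -0.12. It gave -3.04 for Fabp1, -2.22 for Fabp9, -0.47 for Fabp4, 0.0748 for Fabp5 and -2.63 for the median. Rescaling to the same sum gave -0.37 for Fabp4 and 0.17 for Fabp5. No sign changed, but the ratio of Fabp5 came near 0. Which scaling is nearer to the RNA content of the cells was not tested. The 19 other lists held 99 lower genes in sum as reported, 85 with 1 FPKM added and 101 with 0.01 FPKM added. They held 105 after rescaling to the same sum and 111 after rescaling by the median ratio. The share of all genes called lower was 20.5%, 15.2%, 21.0%, 21.5% and 22.7% in the same order.

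No paired analysis was possible because each genotype has 1 library, and for the same reason leaving out a library was not run. A difference of the size seen for Fabp4, Fabp5 or Fabp7 exceeds counting error, but its size relative to the spread between pools of mice was not measurable. For Fabp3 a count of 0 allows a level of up to 0.0849 FPKM.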
